A study of Mus musculus with 20 samples.

Results

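The genes described here were those of glutathione metabolism and of the antioxidant response controlled by the transcription factor NRF2, in 7 clonal mouse fibroblast lines. They were chosen by name. The glutathione transferases of the alpha, kappa, mu, omega, pi and theta classes, the glutathione peroxidases and the peroxiredoxins were taken, with the enzymes of glutathione synthesis and recycling (Gclc, Gclm, Gss, Gsr), NRF2 itself (Nfe2l2) and its inhibitor Keap1, the enzymes Nqo1, Hmox1, Txnrd1 and Srxn1, catalase (Cat) and the superoxide dismutases. This gave 76 of 45101 probe sets on the array, and they measured 44 of 18193 genes. Of the 44 genes, 31 were above the background of the array in all 7 lines, 10 in some lines and 3 (Gpx6, Gstt2 and Gsta2) in none. A gene was above background in a line when its level was over the 95th percentile of the 27 bacterial probe sets whose RNA had not been spiked in.

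The lines were clones of Swiss 3T3 cells, an immortalized mouse embryonic fibroblast, and the study asked which genes mark fibroblasts committed to the fat lineage before differentiation begins. Swiss 2 and Swiss 8, with Swiss 9 and Swiss 19, were preadipose. The non-adipogenic class held Swiss 3 and Swiss 5, with Swiss 22. Every line was grown in DMEM with 10% bovine serum, received no agent that induces differentiation, and was harvested while still proliferating. Each line is a single clone, so a class is represented by 4 or 3 clones, and Swiss 19 had 2 arrays where every other line had 3, giving 11 preadipose and 9 non-adipogenic arrays.

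Glutathione is a tripeptide of glutamate, cysteine and glycine that donates electrons against peroxides and is attached to electrophiles. It is made by glutamate-cysteine ligase and glutathione synthetase, spent by peroxidases and transferases, and returned to its reduced form by glutathione reductase with NADPH. In resting cells KEAP1 holds NRF2 for degradation. When electrophiles or oxidants modify KEAP1, NRF2 accumulates, pairs with small MAF proteins and binds antioxidant response elements in the promoters of many of these enzymes.

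Because NRF2 acts through such elements, the window from 250 bases before to 50 bases after each start was searched in the RefSeq promoters of GRCm38.p6. Of the 44 genes, 38 had at least 1 promoter there, 50 in all. Gclc, Gsr, Hmox1, Sod3, Gsta4 and Gstt2 had none there and were not searched. The element core TGACNNNGC, read on both strands, was in 8 of those 38 genes (21.1%), against 14% of 27025 genes in the whole table. The holders were Gclm, Gsta3, Gstm5, Gstm7, Nfe2l2, Sod1, Srxn1 and Txnrd1. Gstm7 and Txnrd1 had several promoters, and only 1 of each held it. No match of it overlapped an AP-1 site (TGACTCA), which was in 6% of the 50 promoters and in 5.2% of all 32851 promoters. A second spelling, TGANTCAGC, was added after the first matches had been seen; with C or G at the open letter it contains the AP-1 site on 1 of the strands, as both matches here did. It was in 2 of the 38 genes, Gstp1 and Srxn1 (5.26%), against 1.37% of all genes. These matches describe letters within the window and show neither binding nor its absence elsewhere.

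The promoters of Gclm, Srxn1, Nfe2l2 and Gstp1 are shown because they hold a match and belong to genes described below, and that of Gpx8 because Gpx8 was the member called between the classes; it held neither spelling. All are 5′ to 3′ on the strand of the gene, with matches in capitals. Gclm is at chr3:122245307-122245606 on the plus strand, with GCACCGTCA, the core read on the opposite strand, beginning at position -134 from the start. Srxn1 is at chr2:152105274-152105573 on the plus strand, with TGAGTCAGC at position -45 and GCTAGGTCA, the core on the opposite strand, at position 29. Nfe2l2 is at chr2:75704614-75704913 on the minus strand, with TGACTCCGC at position -240. Gstp1 is at chr19:4037863-4038162 on the minus strand, with TGAGTCAGC at position -74. Gpx8 is at chr13:113046339-113046638 on the minus strand.
Gclm: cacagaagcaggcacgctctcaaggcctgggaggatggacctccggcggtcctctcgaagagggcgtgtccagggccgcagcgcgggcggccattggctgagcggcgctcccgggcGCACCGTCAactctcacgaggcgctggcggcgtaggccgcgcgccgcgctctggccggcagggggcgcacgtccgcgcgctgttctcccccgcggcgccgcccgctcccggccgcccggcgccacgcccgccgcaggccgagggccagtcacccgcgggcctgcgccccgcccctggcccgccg
Srxn1: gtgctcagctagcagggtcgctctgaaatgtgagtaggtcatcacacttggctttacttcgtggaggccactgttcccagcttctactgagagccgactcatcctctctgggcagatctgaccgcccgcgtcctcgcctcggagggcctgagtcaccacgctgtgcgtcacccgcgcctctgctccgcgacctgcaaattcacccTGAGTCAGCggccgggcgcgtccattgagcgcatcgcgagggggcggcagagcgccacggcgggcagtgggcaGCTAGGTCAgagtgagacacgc
Nfe2l2: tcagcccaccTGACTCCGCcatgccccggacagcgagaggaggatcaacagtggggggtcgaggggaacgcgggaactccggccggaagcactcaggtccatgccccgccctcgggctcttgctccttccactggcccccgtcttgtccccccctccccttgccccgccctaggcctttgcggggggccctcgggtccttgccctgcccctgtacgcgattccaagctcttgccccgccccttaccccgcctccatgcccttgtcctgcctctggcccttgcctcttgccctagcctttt
Gstp1: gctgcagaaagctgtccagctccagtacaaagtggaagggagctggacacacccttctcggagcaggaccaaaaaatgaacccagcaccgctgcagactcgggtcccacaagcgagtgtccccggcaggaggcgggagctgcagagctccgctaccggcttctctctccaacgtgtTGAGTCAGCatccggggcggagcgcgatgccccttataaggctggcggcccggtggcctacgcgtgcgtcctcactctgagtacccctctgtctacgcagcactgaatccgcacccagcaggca
Gpx8: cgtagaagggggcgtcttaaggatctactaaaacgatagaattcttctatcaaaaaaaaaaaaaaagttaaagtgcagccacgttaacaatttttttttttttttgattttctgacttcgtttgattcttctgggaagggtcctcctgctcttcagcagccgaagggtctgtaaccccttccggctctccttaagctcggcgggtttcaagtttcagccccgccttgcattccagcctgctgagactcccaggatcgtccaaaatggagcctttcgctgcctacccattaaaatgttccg

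The lines had the markers of fibroblasts. All 11 fibroblast markers tested were above background in all 7 lines, with summed levels of 387605 to 461583 in preadipose and 336287 to 358938 in non-adipogenic lines; the part of this difference in the results was not tested. Alb and Fgb of hepatocytes, Ptprc and Itgam of leukocytes, Cdh1 and Krt19 of epithelia, Pecam1 of endothelium and the adipocyte genes Cidec and Lep were above background in none. Fabp4 and Retn of adipocytes, Epcam and Krt8 of epithelia and Cd68, Adgre1, Csf1r and Lyz2 of macrophages were above background in all 7 lines. Adipoq, Apoa1, Ttr, Cyp2e1, Tyrobp, Krt18, Cldn4, Cdh5, Kdr, Tek, Plvap and Emcn were above it in some lines. The 7 leukocyte markers summed to 1294 to 1660 in preadipose and 1155 to 2121 in non-adipogenic lines, and the 6 epithelial markers to 827 to 1182 in preadipose and 838 to 1282 in non-adipogenic lines. Levels are given as scaled intensity, the array intensity after each array was scaled to a trimmed mean of 500, and log2 differences come from quantile-normalized log2(intensity + 32), which understates the change of dim genes. Before scaling, the mean intensity of the arrays ran from 25.6 to 156.7. The arrays of Swiss 2, Swiss 8 and Swiss 9 and 2 of those of Swiss 3 formed the dimmer part. Most preadipose arrays were thus dim and most non-adipogenic arrays bright. Class and array brightness were therefore largely confounded, and all differences between the classes given below carry this limit. All 20 arrays were most similar to another array of their own line. In such bulk RNA, fewer cells that express a gene and less RNA of it per cell cannot be told apart.

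Between the classes, 1 of the 44 genes passed the test. In limma's fit on the 7 line means with Benjamini-Hochberg adjustment over all genes, Gpx8 was lower in preadipose lines (1 of 44, against 0.951% of all genes), and no member was higher (0 of 44, against 0.583% of all genes). At an unadjusted p below 0.05, 8 members were higher, against 7.17% of all genes, and 6 were lower, against 8.45%. Without overlap of line means, 7 members stood on the higher side in preadipose lines (6.39% of all genes) and 6 on the lower side (7.53%). The higher ones were Gsr, Gclm, Gstm4, Nfe2l2, Srxn1, Prdx3 and Sod3, and the lower ones Gpx8, Gsta4, Gstt1, Gstt3, Gstm2 and Gstm6. These are log2 means; on scaled intensity 11 of the 13 did not overlap either, and Gclm and Gstm6 did. The 13 became 4 with arrays centred on their medians and 1 without normalization, and the share of all genes under these scalings was not counted. The median log2 difference over the 44 members was 0.02, with 25 positive, and the median over all 18193 genes was 0.00.

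**Figure D1:**
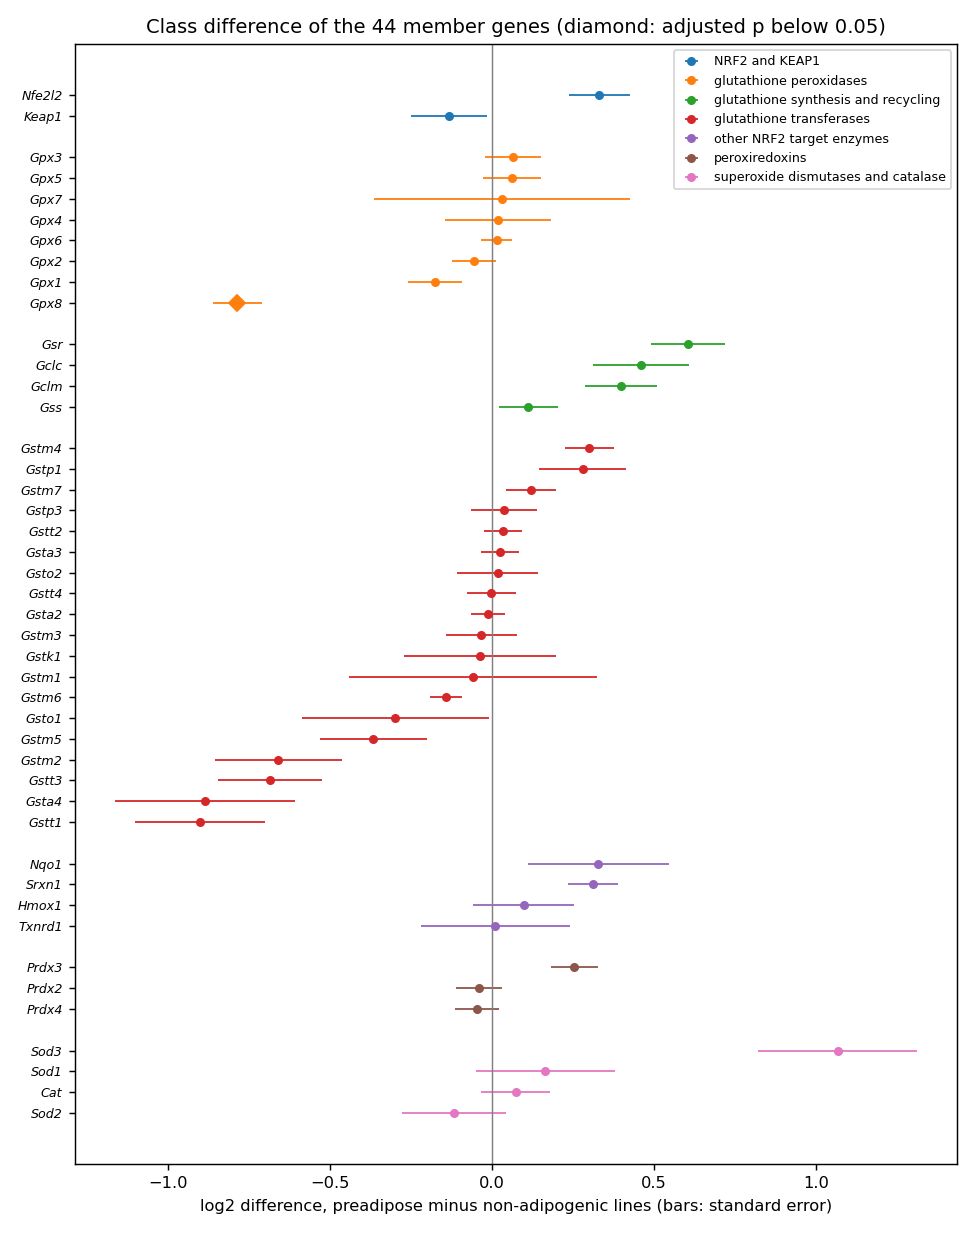
Log2 difference between preadipose and non-adipogenic lines for each of the 44 genes, ordered by role, with the standard error from limma on 4 against 3 line means as a bar. Gpx8 at -0.79 is the diamond and the 1 call, and Sod3 at 1.07 and Gstt1 at -0.90 lie farthest from 0. With arrays centred on their medians, Nfe2l2, Srxn1, Prdx3, Nqo1, Hmox1 and Txnrd1 would move below 0. Only 18 of the genes were recomputed in this way, and others may move below 0 as well.

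The scaling of the arrays mattered for the sign of small differences among bright genes. The class differences of 18 members were recomputed under other scalings, and those of the remaining members were not. When arrays were only centred on their medians, the differences of Nfe2l2, Srxn1, Prdx3, Nqo1, Hmox1 and Txnrd1 became negative, and without normalization that of Gclm did too. Without normalization the median over all genes moved by -0.19, and the median of the 500 genes nearest in level to Nfe2l2 was -0.67. Measured against the 500 genes of like level, all 18 members compared in this way had the same sign under all 3 scalings. Nfe2l2 was then 0.34 above its like-level genes, Gsr 0.61 above and Gpx8 -0.77 from them, both with median centring and without normalization. Those settings differ only by a constant for each array, which the subtraction removes, so their values had to be identical. The subtraction also removes the level-dependent shift that quantile normalization removes. The shared signs are therefore no independent check of the scaling.

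Set against the spread between arrays of a line, many of the genes differed among the clones. The F test over the 7 lines, on 20 arrays, called 28 of the 44 genes (63.6%), against 35.8% of all genes. With the further demand that line means spanned at least 1 log2 unit, 11 members were called (25%), against 5.1% of all genes; the 11 became 29 with arrays centred on their medians, 33 without normalization and 4 with a larger pseudocount. Among genes above background in at least 1 line, the corresponding shares were 68.3% of 41 members against 42.9%, and 26.8% against 6.11%. Within the preadipose lines 21 members differed (23.2% of all genes), and within the non-adipogenic lines 18 did (16.4%). These counts were 39 and 30 with median centring and 35 and 34 without normalization. The share of all genes called under any of these other settings was not counted. The changed counts therefore cannot be read as a result about the members. The arrays of a line may be repeats of 1 culture, so these p-values measure the spread between arrays, which may be technical.

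Nfe2l2, which encodes NRF2, was above background in every line. It averaged 4342 ± 314 for Swiss 2, 5082 ± 544 for Swiss 8, 4015 ± 336 for Swiss 9 and 4133 ± 299 for Swiss 19, against 3242 ± 75.3 for Swiss 3, 3767 ± 266 for Swiss 5 and 3107 ± 245 for Swiss 22 (SD over the 3 arrays of a line, or 2 for Swiss 19). All 4 preadipose means lay above all 3 non-adipogenic means. Single arrays ran from 3645 through a median of 4302 to 5399 in preadipose lines, and from 2903 through 3297 to 4070 in non-adipogenic lines, so that arrays of the classes overlapped. The fold between class means was 1.30, the log2 difference 0.33 ± 0.09 (SE), and limma's adjusted p 0.140.

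Keap1, the adaptor that delivers NRF2 to a ubiquitin ligase for destruction, was measured by 2 probe sets. On the one used it was highest in Swiss 2, at 1767 ± 200, and lowest in Swiss 9, at 1117 ± 46.0, both preadipose, while the non-adipogenic lines lay between 1514 and 1584. Its log2 difference between the classes was -0.13 (adjusted p = 0.697). Keap1 differed among the preadipose lines (limma's adjusted p = 0.000733) and did not pass the test among the non-adipogenic lines (adjusted p = 0.833). A second Keap1 probe set gave 835, 801, 706 and 653 in Swiss 2 and its preadipose fellows Swiss 8, Swiss 9 and Swiss 19, all below 889 for Swiss 3, 1011 for Swiss 5 and 1078 for Swiss 22. Its log2 difference was -0.24, with an adjusted p of 0.202 over all probe sets, so the probe sets shared the sign and differed in the order of lines.

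**Figure D2:**
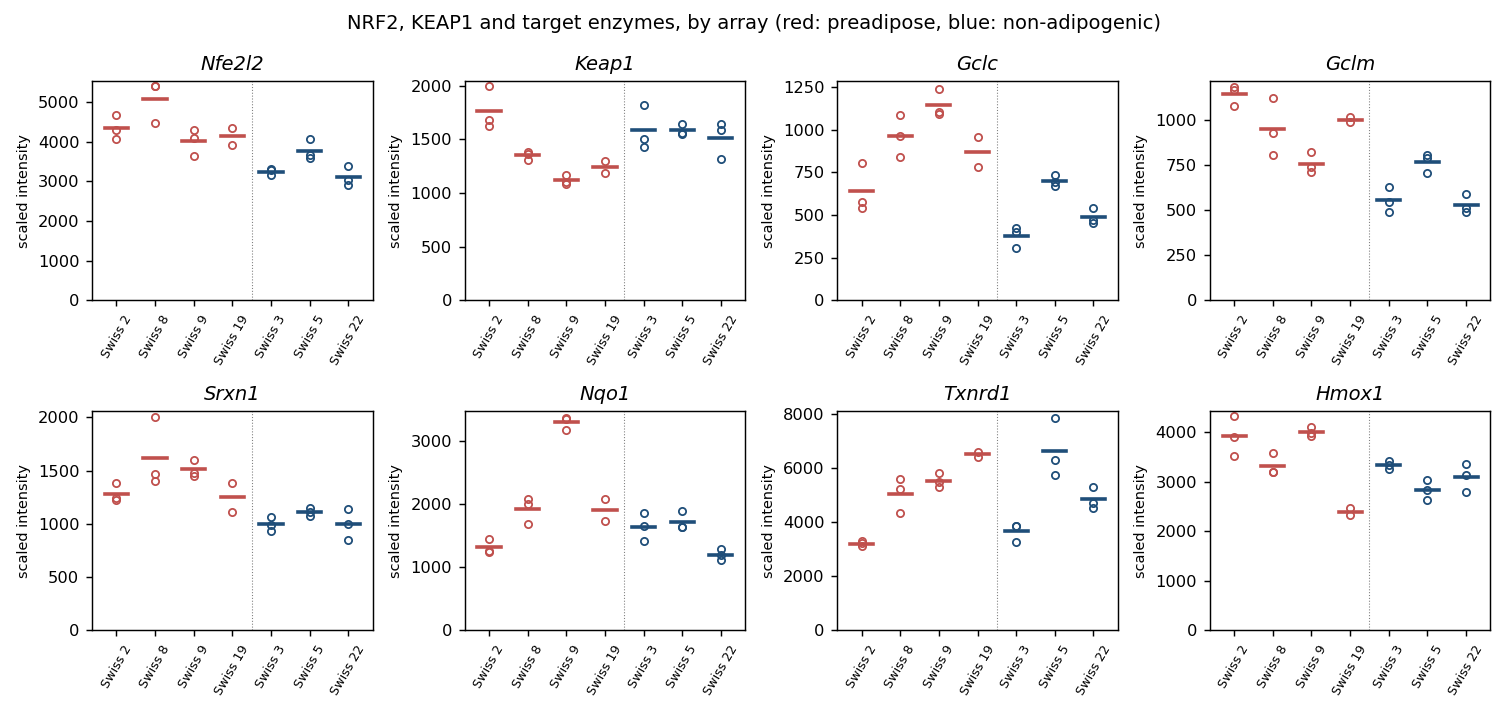
Scaled intensity of NRF2 (Nfe2l2), Keap1 and 6 target enzymes on each of the 20 arrays, with preadipose lines in red on the left, non-adipogenic lines in blue on the right and a bar at each line mean. Nfe2l2 and Srxn1 have every preadipose mean above every non-adipogenic mean; Nqo1 stands at 3300 for Swiss 9, and Txnrd1 and Hmox1 vary as much inside each class as between them.

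The enzymes that make and recycle glutathione were all higher on average in preadipose lines, and none passed the adjusted test. Their log2 differences were 0.61 for Gsr, 0.46 for Gclc, 0.40 for Gclm and 0.11 for Gss. With arrays centred on their medians those of Gsr, Gclc and Gclm were 0.15, 0.18 and 0.08. Without normalization they were 0.02, 0.05 and -0.04, and that of Gss was not recomputed. Gsr, glutathione reductase, was the nearest to the threshold. It averaged 2165 ± 174 for Swiss 2, 2365 ± 60.6 for Swiss 8, 1958 ± 181 for Swiss 9 and 1979 ± 262 for Swiss 19, against 922 ± 126 for Swiss 3, 1496 ± 247 for Swiss 5 and 1280 ± 171 for Swiss 22. Its 11 preadipose arrays ran from 1793 to 2421, with a median of 2164, and its 9 non-adipogenic arrays from 790 to 1780, with a median of 1269, without overlap. The difference was 1.72-fold, with a log2 difference of 0.61 ± 0.11 and an adjusted p of 0.0519.

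A second Gsr probe set gave a log2 difference of 0.63 and, with adjustment over all probe sets, an adjusted p of 0.0389. When genes dim in all lines were left out before the adjustment, the adjusted p of Gsr was 0.0306, and with the brightness of the arrays as a block it was 0.0437. Whichever of the 7 lines was left out, the adjusted p of Gsr stayed above 0.05. Between lines of a class, Gsr differed among the non-adipogenic clones (adjusted p = 0.00853) and not past the threshold among the preadipose ones (adjusted p = 0.238).

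Gclc, the catalytic subunit of glutamate-cysteine ligase, was spread more widely. Its line means were 643 ± 143 for Swiss 2, 963 ± 121 for Swiss 8, 1146 ± 80.6 for Swiss 9 and 868 ± 124 for Swiss 19, and 378 ± 61.2 for Swiss 3, 699 ± 35.0 for Swiss 5 and 487 ± 47.4 for Swiss 22. Swiss 2 lay below Swiss 5, so the classes overlapped, and the 1.74-fold difference had an adjusted p of 0.185. A second probe set ordered the lines almost alike and gave a log2 difference of 0.42. The exception was Swiss 2, at 419, which there lay above Swiss 5, at 345. On that probe set the scaled line means of the classes therefore did not overlap.

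Gclm, the regulatory subunit of the same ligase, had 1145 ± 55.6 for Swiss 2, 953 ± 161 for Swiss 8, 759 ± 57.6 for Swiss 9 and 1004 ± 21.3 for Swiss 19, against 557 ± 69.5 for Swiss 3, 768 ± 50.8 for Swiss 5 and 531 ± 53.6 for Swiss 22. Swiss 9 was the lowest preadipose line for Gclm, just below Swiss 5 on this scale, and the highest for Gclc. The 1.56-fold difference in Gclm had an adjusted p of 0.135, and a much dimmer second Gclm probe set gave a log2 difference of 0.02. Gss, glutathione synthetase, differed by 1.13-fold between the classes and did not pass the test between lines (adjusted p = 0.119).

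Among the other NRF2 target enzymes, all 4 differed among the lines, and none passed the test between the classes. Srxn1, sulfiredoxin, which repairs over-oxidized peroxiredoxins, averaged 1285 ± 89.8 for Swiss 2, 1623 ± 329 for Swiss 8, 1512 ± 79.0 for Swiss 9 and 1248 ± 189 for Swiss 19, against 1000 ± 66.3 for Swiss 3, 1111 ± 34.7 for Swiss 5 and 999 ± 143 for Swiss 22. Its preadipose means all lay above its non-adipogenic means, by 1.37-fold, with an adjusted p of 0.102. Single arrays overlapped, since the lowest preadipose array had 1115 and the highest non-adipogenic array 1145. Of the 3 further Srxn1 probe sets, the brightest gave a log2 difference of 0.30, the next 0.20 and the dimmest -0.03.

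Nqo1, the quinone reductase often used as a readout of NRF2, was highest in 1 preadipose clone. It averaged 3300 ± 99.5 for Swiss 9, against 1316 ± 117 for Swiss 2, 1928 ± 214 for Swiss 8 and 1911 ± 246 for Swiss 19, and 1643 ± 223 for Swiss 3, 1724 ± 147 for Swiss 5 and 1203 ± 82.0 for Swiss 22. Swiss 9 was 0.82 log2 units above the mean of the other 6 lines, with an adjusted p of 2.06e-07. Between the classes Nqo1 differed by 0.33 ± 0.22 log2 units (adjusted p = 0.561).

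Hmox1, haem oxygenase, was highest in Swiss 9 and Swiss 2, at 4007 ± 90.0 and 3916 ± 400, and lowest in Swiss 19, at 2394 ± 107, with Swiss 8 at 3320 ± 227. Its non-adipogenic means were 3338 ± 81.2 for Swiss 3, 2829 ± 198 for Swiss 5 and 3095 ± 286 for Swiss 22, inside the preadipose range. Txnrd1, thioredoxin reductase, ran from 3212 ± 97.2 for Swiss 2 through 5053 ± 642 for Swiss 8 and 5537 ± 244 for Swiss 9 to 6503 ± 122 for Swiss 19, a span wider than that of its non-adipogenic lines at 3665 ± 330, 6636 ± 1096 and 4846 ± 417. Neither gene differed past the threshold between the classes (log2 0.10 and 0.01, adjusted p = 0.863 and 0.992). On these probe sets the targets did not share an order of lines: Swiss 2 was among the highest for Hmox1 and the lowest for Txnrd1, and Swiss 19 was the lowest for Hmox1 and among the highest for Txnrd1. For Txnrd1 this order rests on the probe set used: a second one had 1504 for Swiss 2 and 1403 for Swiss 19, and Swiss 22 and Swiss 19 were its lowest lines. Hmox1 turned to -0.11 with the brightness of the arrays as a block, and Txnrd1 turned negative when Swiss 3, Swiss 9, Swiss 19 or Swiss 22 was left out.

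The glutathione transferases conjugate glutathione to electrophiles. Of the 19 measured, 11 were above background in all lines, 10 differed among the lines (35.8% of all genes did), 1 (Gstm4) was higher in preadipose lines without overlap of line means (6.39% of all genes) and 5 were lower (7.53%), while none passed the class test. Gsta4, which detoxifies the lipid aldehyde 4-hydroxynonenal, averaged 3029 ± 323 for Swiss 2, 3690 ± 560 for Swiss 8, 4436 ± 150 for Swiss 9 and 3172 ± 303 for Swiss 19, against 11764 ± 580 for Swiss 3, 5421 ± 497 for Swiss 5 and 5301 ± 443 for Swiss 22. The arrays did not overlap: they ran from 2774 to 4525 in preadipose lines, with a median of 3392, and from 4799 to 12404 in non-adipogenic lines, with a median of 5639. The classes differed by 2.09-fold (log2 difference -0.89 ± 0.28, adjusted p = 0.177), and without Swiss 3 the log2 difference was -0.50. Swiss 3 stood 1.48 log2 units above the other 6 lines (adjusted p = 4.37e-11).

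Gstt1, a theta-class transferase that acts on small halogenated compounds, had 184 ± 49.9 for Swiss 2, 237 ± 181 for Swiss 8, 401 ± 130 for Swiss 9 and 494 ± 88.5 for Swiss 19, against 1484 ± 107 for Swiss 3, 722 ± 37.0 for Swiss 5 and 894 ± 73.2 for Swiss 22. No preadipose array, from 43.2 to 556 with a median of 310, reached the lowest non-adipogenic array at 694; the non-adipogenic median was 935 and the highest array 1602. The 3.14-fold difference (log2 difference -0.90 ± 0.20) had an adjusted p of 0.0803, which was 0.0426 when genes dim in all lines were left out and 0.0445 with a pseudocount of 8. Of the 39 alternatives tried for Gstt1, 4 gave an adjusted p below 0.05, and the highest adjusted p was 0.910. Swiss 3 was 1.08 log2 units above the other lines (adjusted p = 4.23e-07).

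Gstt3, the next protein-coding gene beside Gstt1 on chromosome 10, was also lower on average in preadipose lines. It was at 129 ± 77.1 for Swiss 2, 63.4 ± 36.5 for Swiss 8, 321 ± 114 for Swiss 9 and 259 ± 33.4 for Swiss 19, with Swiss 2 and Swiss 8 not above background, against 675 ± 59.9 for Swiss 3, 418 ± 70.6 for Swiss 5 and 671 ± 129 for Swiss 22. The preadipose level was at least 2.86-fold lower (adjusted p = 0.0894). Gstt4 and Gstt2, the next members along the same stretch, were at or near background.

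The mu-class genes Gstm5, Gstm7, Gstm6, Gstm3, Gstm2, Gstm1 and Gstm4 lie side by side on chromosome 3, and they did not move as a block. Gstm2 had 2425 ± 401 for Swiss 2, 1573 ± 457 for Swiss 8, 1828 ± 142 for Swiss 9 and 2473 ± 202 for Swiss 19, against 4750 ± 388 for Swiss 3, 2808 ± 88.8 for Swiss 5 and 3374 ± 116 for Swiss 22, a 1.76-fold difference with an adjusted p of 0.156. Its neighbour Gstm1 was instead highest in 1 line of each class, with 8542 ± 227 for Swiss 2 and 8896 ± 1411 for Swiss 3, and between 3177 and 4565 in the other 5 lines. Gstm1 had a log2 difference of -0.06 between the classes and 94.5% of its sum of squares between lines of a class. A second bright Gstm1 probe set placed Swiss 2 at 6878 and Swiss 3 at 7677, again above the other 5 lines, while on 2 dimmer ones the lines did not differ past the threshold (adjusted p = 0.111 and 0.161).

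Gstm4, a dim mu-class gene, was higher on average in preadipose lines, as was Gstm7 (log2 difference 0.12, adjusted p = 0.552). Gstm4 had 369 ± 78.7 for Swiss 2, 275 ± 31.8 for Swiss 8, 283 ± 27.8 for Swiss 9 and 197 ± 9.36 for Swiss 19 against 145 ± 83.5 for Swiss 3, 134 ± 68.3 for Swiss 5 and 137 ± 29.0 for Swiss 22. The 2.03-fold difference had an adjusted p of 0.101, and 0.0399 when Swiss 19 was left out. Gstm6 did not overlap on the log2 scale and did on scaled intensity, near background. Mu-class sequences are alike, and the probe sets used for Gstm1 and Gstm3 carry suffixes that mark possible cross-hybridization, so levels of single mu-class genes are uncertain.

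Swiss 19 stood apart in Gsto1, an omega-class transferase that reduces dehydroascorbate. Gsto1 was at 14909 ± 62.0 for Swiss 19, against 29385 ± 3500 for Swiss 2, 38725 ± 3757 for Swiss 8, 40275 ± 396 for Swiss 9, 28918 ± 891 for Swiss 3, 41459 ± 3819 for Swiss 5 and 32475 ± 1116 for Swiss 22. Swiss 19 was 1.08 log2 units below the mean of the other 6 lines (log2 difference -1.08, adjusted p = 5.70e-09). A second, dimmer Gsto1 probe set placed Swiss 19 at 6456, with Swiss 2 the lowest at 2971, so the 2 probe sets disagreed. The highest intensity on an array differed 3.10-fold between arrays where mean intensity differed 6.11-fold, and Swiss 19 had the brightest arrays; the part of this in the level of Gsto1 was not tested. Gstp1, a pi-class transferase, was between 18376 and 24433 in preadipose lines and between 16323 and 20892 in non-adipogenic lines (log2 difference 0.28, adjusted p = 0.383). Gstk1, the mitochondrial and peroxisomal kappa-class enzyme, ran from 20.9 ± 9.38 for Swiss 2, not above background, to 532 ± 77.5 for Swiss 9.

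**Figure D3:**
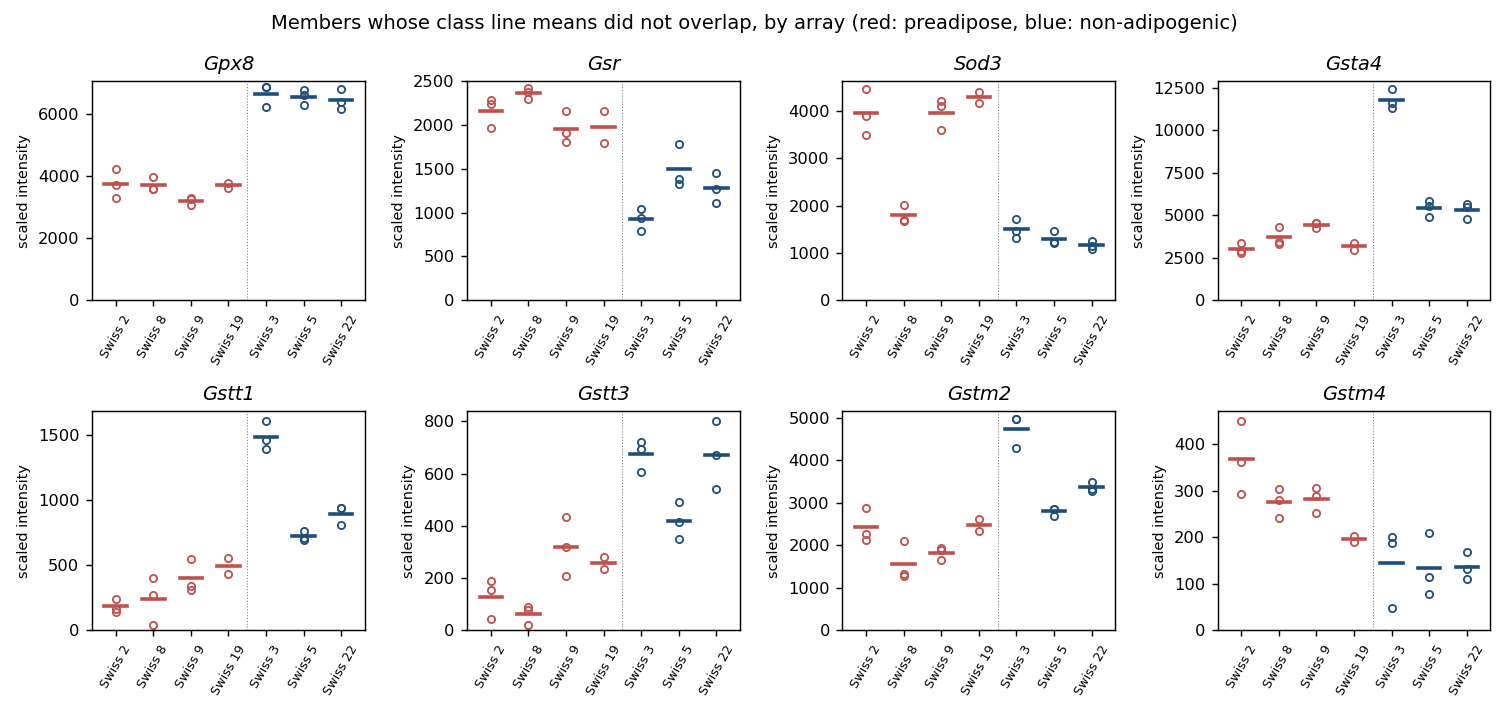
Scaled intensity on each of the 20 arrays for 8 genes with the class line means apart, with preadipose lines in red on the left, non-adipogenic lines in blue on the right and a bar at each line mean. The preadipose arrays of Gpx8 lie between 3056 and 4230, all below its non-adipogenic arrays; Swiss 8 is low for Sod3, and Swiss 3 is high for Gsta4 and Gstt1.

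Gpx8 was the member that changed between the classes. It encodes a glutathione peroxidase of the endoplasmic reticulum membrane that uses hydrogen peroxide formed during protein folding. The level was 3753 ± 464 for Swiss 2, 3712 ± 223 for Swiss 8, 3206 ± 131 for Swiss 9 and 3711 ± 117 for Swiss 19, against 6660 ± 370 for Swiss 3, 6555 ± 247 for Swiss 5 and 6456 ± 315 for Swiss 22. Single arrays ran from 3056 through a median of 3587 to 4230 in preadipose lines and from 6173 through 6605 to 6875 in non-adipogenic lines, and the classes did not overlap. Gpx8 was 1.82-fold lower in preadipose lines (class means 3595 ± 260 and 6557 ± 102, SD over 4 and 3 lines), with a log2 difference of -0.79 ± 0.07 and limma's adjusted p of 0.00753. Of its sum of squares, 92.9% lay between the classes, and neither the preadipose lines (adjusted p = 0.0843) nor the non-adipogenic lines (adjusted p = 0.453) differed among themselves past the threshold.

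The Gpx8 call held when any array or any line was left out, with log2 differences between -0.82 and -0.73 over the lines. It was lost, with a difference of the same sign, when arrays were centred on their medians (-1.32, adjusted p = 0.910) or not normalized (-1.45, adjusted p = 0.883). The difference was -0.87 within the dim arrays alone and -0.75 within the bright arrays alone. Each of these subsets leaves a class with a single line, so they cannot decide whether the call holds.

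Gpx7, the relative of GPX8 in the same compartment, varied between clones instead. It was at 1232 ± 34.0 for Swiss 19 and 623 ± 143 for Swiss 9, and not above background in Swiss 2 (50.9 ± 55.3) and Swiss 8 (86.5 ± 65.2), while the non-adipogenic lines lay between 302 and 438. Swiss 19 exceeded the other 6 lines by 1.14 log2 units (adjusted p = 2.15e-07), and 95.4% of the sum of squares of Gpx7 lay between lines of a class, against 0.294% between the classes. Gpx4, which reduces lipid hydroperoxides in membranes, was highest in 1 line of each class, with 13582 ± 363 for Swiss 2 and 13322 ± 604 for Swiss 3, and between 9632 and 11422 in the other 5. A second Gpx4 probe set also had Swiss 3 the highest, at 11352, and Swiss 2, at 9726, below Swiss 22 and Swiss 19 at 10493 and 10134. Gpx1, the cytosolic peroxidase, was bright in every line, from 15627 to 19974 in preadipose and from 18203 to 20917 in non-adipogenic lines (log2 difference -0.17, adjusted p = 0.380). Gpx2, Gpx3, Gpx5 and Gpx6 were at or near background.

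Of the peroxiredoxins, thiol peroxidases that use thioredoxin, Prdx2, Prdx3 and Prdx4 were measured with a symbol of their own. Prdx3, the mitochondrial one, had 2982 ± 264 for Swiss 2, 3110 ± 160 for Swiss 8, 2793 ± 177 for Swiss 9 and 2588 ± 4.64 for Swiss 19, against 2341 ± 222 for Swiss 3, 2426 ± 162 for Swiss 5 and 2198 ± 111 for Swiss 22. Its line means did not overlap, its class difference was 1.24-fold, and its adjusted p was 0.143. Prdx2 of the cytosol and Prdx4 of the endoplasmic reticulum had log2 differences of -0.04 and -0.05 and line ranges of 0.26 and 0.22.

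Sod3, the secreted superoxide dismutase of the extracellular matrix, had the largest log2 class difference of the 44 genes; as folds of scaled intensity those of the dimmer Gstt1 and Gstt3 were larger. It averaged 3952 ± 486 for Swiss 2, 1799 ± 187 for Swiss 8, 3968 ± 322 for Swiss 9 and 4289 ± 159 for Swiss 19, against 1502 ± 196 for Swiss 3, 1300 ± 143 for Swiss 5 and 1164 ± 86.8 for Swiss 22. Swiss 2, Swiss 9 and Swiss 19 were alike and far above the non-adipogenic lines, while Swiss 8 lay just above them. Its lowest array, at 1684, overlapped the highest of Swiss 3, at 1711. The 2.65-fold difference (log2 1.07 ± 0.25) had an adjusted p of 0.0860, and when Swiss 8 was left out the log2 difference was 1.31 and the adjusted p 0.0165. With genes dim in all lines left out before the adjustment, the adjusted p was 0.0457. The log2 difference was 0.64 with arrays centred on their medians and 0.51 without normalization. Of the 39 alternatives tried for Sod3, 4 gave an adjusted p below 0.05, and the highest adjusted p was 0.910. A second Sod3 probe set had Swiss 8 the lowest preadipose line too, at 921, and gave a log2 difference of 0.79.

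Sod1, the copper and zinc enzyme of the cytosol, differed among the clones of both classes. It was at 47173 ± 2622 for Swiss 2, 46808 ± 1802 for Swiss 8, 37046 ± 639 for Swiss 9 and 22808 ± 207 for Swiss 19, and at 39052 ± 902 for Swiss 3, 33837 ± 1813 for Swiss 5 and 24256 ± 1527 for Swiss 22. Each class thus spanned most of the range, and the log2 difference was 0.16 (adjusted p = 0.818). The low lines, Swiss 19 and Swiss 22, were also those with the brightest arrays, and whether the top of the intensity scale contributed was not tested; a second bright Sod1 probe set ran only from 12350 to 18376. Sod2, the manganese enzyme of mitochondria, was highest in Swiss 3, at 7886 ± 372, against 4882 to 6075 in the other 6 lines; of 3 further probe sets, 2 also had Swiss 3 the highest and 1 had Swiss 22. Cat, catalase, was between 910 and 1418 in all lines and did not pass the test between them (adjusted p = 0.0730), and its second probe set had the opposite sign between the classes, at -0.03.

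Across the 28 genes that differed among the lines, 15 had more of their sum of squares between lines of a class and 13 had more between the classes. There are more lines within the classes than classes, so raw sums of squares favour the line side without any real difference. The same split was not computed over all genes. For 8 of them, over 80% lay between lines of a class: Gpx7, Gstm1, Gpx4, Txnrd1, Gsto1, Gstk1, Sod2 and Sod1. At the other end stood Gpx8 with 92.9%, Gsr with 75.1%, Sod3 with 69.6% and Gstt1 with 69.0% between the classes.

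**Figure D4:**
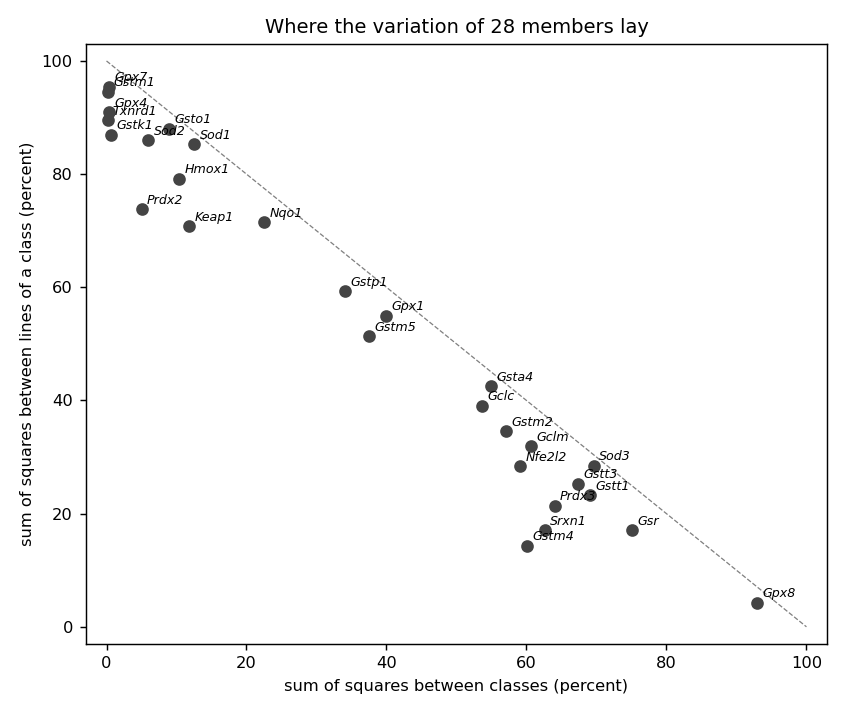
Percent of the sum of squares that lay between the classes (x axis) and between lines of a class (y axis), 1 point for each of the 28 genes called by the F test over 7 lines; the rest up to the dashed line of 100 is between arrays of a line. Gpx8 lies at the lower right with 92.9% between the classes, Gpx7 and Gstm1 at the upper left with 95.4% and 94.5% between lines of a class.

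When each line was set against the other 6, with a log2 difference of at least 1 demanded as well, 4 members were called. The number of such calls was 31 with median centring, 68 without normalization, 18 with a pseudocount of 8 and 2 with a larger one. The share of all genes called under these other settings was not counted. The 4 members called in the main setting were Gsta4 and Gstt1, higher in Swiss 3 (2 of 44, against 0.978% of all genes), and Gpx7 and Gsto1, higher and lower in Swiss 19 (2 of 44, against 0.401%). No member was called in Swiss 2, Swiss 8, Swiss 9, Swiss 5 or Swiss 22, where 0.39%, 0.181%, 0.264%, 0.154% and 0.143% of all genes were. These 7 contrasts share their lines and are not independent of each other.

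**Figure D5:**
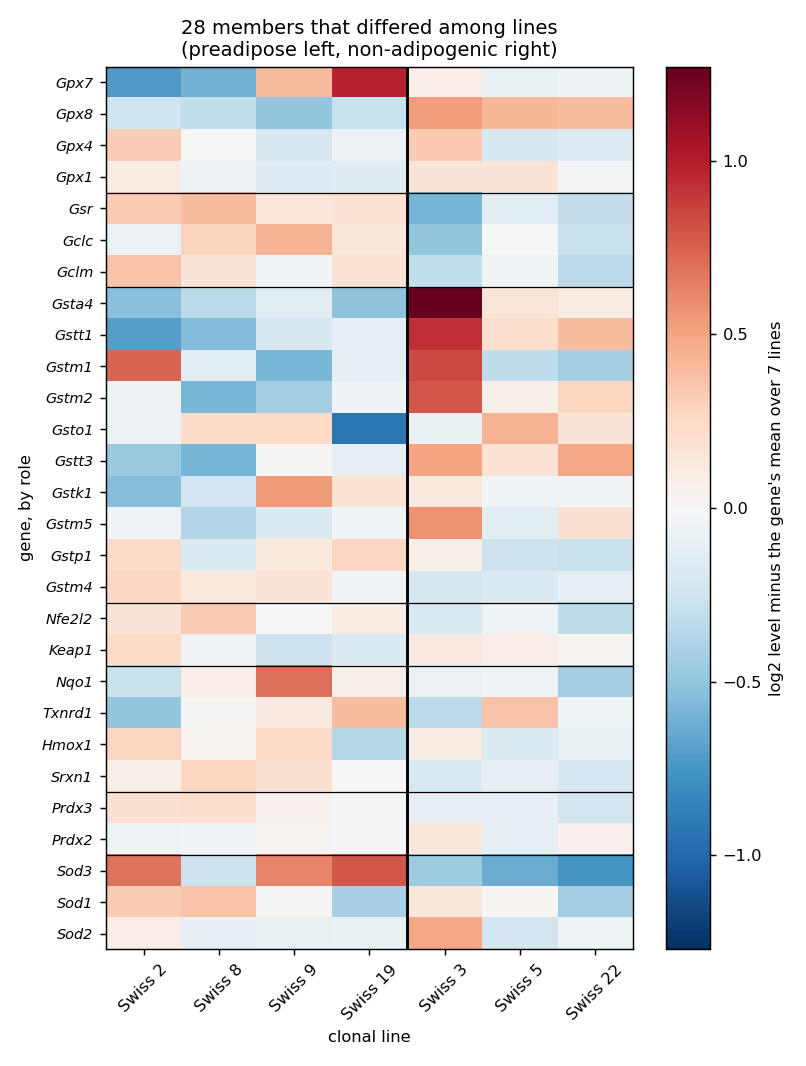
Log2 level of the 28 genes called by the F test, as the line mean minus the gene's mean over 7 lines, with preadipose lines left of the black bar and non-adipogenic lines right of it, genes grouped by role. Swiss 3 holds the deepest red in the transferases, with Gsta4, Gstt1, Gstm1 and Gstm2 all high there, and Swiss 19 is red for Gpx7 and blue for Gsto1.

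Swiss 3 was the highest line for Gsta4, Gstt1, Gstt3, Gstm1, Gstm2 and Gstm5, at 0.59 to 1.48 log2 units above the other 6 lines. In the same line Gsr was 0.69 below the other lines (log2 difference -0.69, adjusted p = 1.12e-06) and Gclc 0.58 below them (log2 difference -0.58, adjusted p = 2.56e-06). Swiss 22 deviated the same way by less in most of these genes, with 0.58 for Gstt3, 0.46 for Gstt1 and 0.32 for Gstm2, and with -0.36 for Gsr and -0.33 for Gclc, while its Gstm1 was at -0.49. Gclm was at -0.37 in Swiss 3 and -0.39 in Swiss 22. No test was made of the genes as a group.

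Other genes around glutathione were taken from 8 lists, 148 measured entries in all. Of 9 genes that supply NADPH, 1 rose and 1 fell in preadipose lines (0.583% and 0.951% of all genes did), with a median log2 difference of 0.02. Pgd, the second oxidative enzyme of the pentose phosphate pathway, was at 6516 ± 985 in preadipose and 3670 ± 658 in non-adipogenic lines, 1.78-fold higher (adjusted p = 0.0412). Nnt, the mitochondrial transhydrogenase, was at 2910 ± 309 in preadipose and 4361 ± 56.1 in non-adipogenic lines, 1.50-fold lower (adjusted p = 0.0339). Both values are means over lines with SD (n = 4 and 3).

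Of 25 further genes known as NRF2 targets, 2 rose (0.583% of all genes) and none fell (0.951%), with a median of -0.02 against 0.00 over all genes. Akr1b8, an aldo-keto reductase, was at 10513 ± 1442 in preadipose and 6475 ± 214 in non-adipogenic lines (1.62-fold higher, adjusted p = 0.0228). Ces1g, a carboxylesterase, was at 222 ± 50.5 in preadipose and 66.1 ± 29.5 in non-adipogenic lines, where it was near background, at least 2.40-fold higher (adjusted p = 0.0486). Of 18 genes of metal, haem and peroxide handling, none rose and 1 fell (0.951% of all genes), Ireb2, an iron regulatory protein, with 1129 ± 64.2 in preadipose and 1579 ± 130 in non-adipogenic lines (1.40-fold lower, adjusted p = 0.0353).

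No gene passed the test in the remaining 5 lists. In 22 genes of cysteine supply and glutathione turnover, 19 had a positive log2 difference and the median was 0.24, against 51.4% of all genes with a positive one. In 20 genes of the thioredoxin and glutaredoxin system the median was -0.06, and Txn1, thioredoxin, named after its values were seen, was 1.59-fold higher with an adjusted p of 0.0894. The medians were -0.02 in 12 other glutathione transferases, -0.01 in 23 entries for genes that control NRF2 and 0.00 in 19 genes of selenoprotein synthesis and other selenoproteins. Amer1 stood in the NRF2 list under both of its names, Amer1 and Wtx, and that median counted it under each. The signs of such list medians hold for quantile-normalized arrays.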

How the data were processed

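RNA from 7 clonal lines was hybridized to 20 3' expression arrays, 1 per sample, after oligo-dT priming and in vitro transcription, per the labels' protocols. The authors deposited a table of intensity on a linear scale for 45101 probe sets, and how they summarized and scaled it is not given in the sources used here. The 64 control probe sets were left out, log2(intensity + 32) was taken, and arrays were quantile-normalized because the range of their log2 medians, 0.61, was over a limit of 0.2. Probe sets with 1 gene symbol were used (34945; 932 with several symbols were left out, 6 of them of these families), and a gene was represented by the one with the highest mean, which gave 18193 genes. All 76 member probe sets matched the RefSeq gene table of GRCm38.p6 by gene identifier, and 0 symbols changed. Of the 32 member probe sets not used, 23 had the sign of the one used. No filter on dim genes was applied.

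The clonal line was the replicate between classes: limma 3.58.1 in R 4.3.3 was fitted to 7 line means with p-values adjusted by Benjamini-Hochberg over all genes, and an adjusted p below 0.05 was called. Moderated F tests and contrasts of a line with the other 6 used all 20 arrays. For levels, arrays were scaled linearly to a mean of 500 with 2% trimmed at each end. Where any line of the dimmer class was not above background, the larger of its level and the background stood for that line in the class mean, and the fold is a lower bound. The number of arrays limits the precision. Alternatives changed the scaling, pseudocount, probe set, filter, blocks, lines and arrays. The labels do not tell whether a separate culture stood behind each array. The tests were run on simulated data first. The genes and lists were chosen with earlier results of these data known. Full values were given for called genes, for Nfe2l2, Keap1 and 6 named targets, and for up to 4 genes per role with the widest spread of line means among those called by the F test; in other pathway lists, called genes were named. Other genes described were chosen after their values were seen.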

Additional observations from a re-analysis of the deposited data

Results flagged for a closer look

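The 4 preadipose line means of each of the 44 genes were examined for 1 line far from the others, by the gap to the nearest line divided by the whole range; the limit was the 95% critical value of Dixon for 4 samples. Chance flags about 1 in 20 such groups, and 3 of 44 were flagged. For Gpx3, the secreted peroxidase, Swiss 2 was high with a ratio of 0.938. It was at 180 ± 145 there, near the background of 144 in that line. In Swiss 8, Swiss 9 and Swiss 19 it was at or below 37.0 and not above background. For Sod2, Swiss 2 was high with a ratio of 0.889, at 8.76 log2 units, where Swiss 8, Swiss 9 and Swiss 19 had 8.57, 8.57 and 8.59. For Sod3, Swiss 8 was low with a ratio of 0.847, at 1799 ± 187 against 3952 to 4289 in Swiss 2, Swiss 9 and Swiss 19. In the F test within the preadipose lines, Sod3 passed (adjusted p = 4.17e-07), while Gpx3 (adjusted p = 0.0721) and Sod2 (adjusted p = 0.196) did not.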

How the results depend on the processing

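The class comparison called 0 members higher and 1 lower. It called 0 and 0 with arrays centred on their medians and without normalization, and 2 and 2 with a pseudocount of 8 or with only genes above background. With the mean of a gene's probe sets, with every probe set on its own and with the brightness block it called 1 and 1. The brightness block held Swiss 3 as separate means of its dim and its bright arrays, so that clone entered as separate replicates. Dim or bright arrays alone leave 1 line in a class, so no counts are given for them. On 20 arrays with the line as a random block (correlation 0.258), 8 and 6 were called. That block sets 1 correlation for all genes. Where arrays of a line are more alike than that, they count partly as replicates of the class, and calls may be too many. The replicate block gave 1 and 1, adding Gsr (adjusted p = 0.0483); the numbers did not pair the arrays, since deviations of same-numbered arrays correlated between -0.03 and 0.05 over 57 pairs. Leaving out lines or arrays gave 0 to 1 higher and 1 to 1 lower; Sod3 was added without Swiss 8, Gstm4 without Swiss 19, and Gsr without any 1 of 5 arrays, 1 each of Swiss 9, Swiss 3, Swiss 5, Swiss 22 and Swiss 19. With median centring the differences of Nfe2l2, Srxn1, Prdx3, Nqo1, Hmox1 and Txnrd1 were -0.20, -0.076, -0.24, -0.080, -0.42 and -0.53, and without normalization those of Gclm, Nfe2l2, Srxn1, Prdx3, Nqo1, Hmox1 and Txnrd1 were -0.044, -0.32, -0.20, -0.37, -0.21, -0.55 and -0.66. Hmox1 was -0.11 with the brightness block, -0.060 when only the dim arrays of Swiss 3 entered that block, an alternative added after seeing the data, and -0.32 on bright arrays. Txnrd1 was -0.0092 with the random block, and ran from -0.15 to 0.20 over lines left out and from -0.02 to 0.05 over arrays left out. The F test over 7 lines called 27 to 39 members under its alternatives. Within preadipose lines it called 39 with median centring and 35 without normalization, and within non-adipogenic lines 30 and 34. Members called in a line against the other 6 were 31 with median centring, 68 without normalization, 18 with a pseudocount of 8 and 2 with a larger one. The number of members without overlap was 4 with median centring and 1 without normalization, and those called by the F test with a range of at least 1 were 29, 33 and, with the larger pseudocount, 4. The cause was not tested. The share of all genes called under these alternatives was not counted, so the changed counts cannot be read as a result about the members. Genes near background, 13 of the 44 in at least 1 line, limit what differences could be seen.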
